A study of Mus musculus with 35 samples.

Results

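Dnmt1, Uhrf1, Dnmt3a, Dnmt3b, Tet1, Tet2, Tet3 and Tdg encode the core enzymes that write and remove 5-methylcytosine in DNA, with UHRF1, the partner that brings DNMT1 to newly copied DNA. They were taken by gene name from the authors' merged assemblies of 2 RNA-seq batches. All 8 were found in both assemblies, and all 8 passed the low-count filter of every fit, among 13726 genes tested over batches.

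In mammalian DNA, cytosines followed by guanine (CpG) carry most of the methylation. DNMT3A and DNMT3B place new methyl groups, and DNMT1 with UHRF1 copies the pattern onto the daughter strand behind the replication fork. TET1, TET2 and TET3 oxidise the methyl group, and TDG cuts out the oxidised bases so that base excision repair can put back an unmodified cytosine. In the nervous system DNMT3A and the TET proteins are known for reshaping methylation as progenitors mature.

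Neural progenitor cells (NPCs) were cultured from mouse embryos with both copies of Mettl14 (WT), with 1 copy (Het) or with none (KO). METTL14 is part of the complex that writes N6-methyladenosine (m6A), a common base modification of messenger RNA. Batch 1 held 3 WT, 3 Het and 3 KO libraries and batch 3 held 2 WT and 2 KO libraries, each from a culture line with its own number in the labels. m6A was mapped by immunoprecipitation (IP) in WT cells only, and chromatin was profiled for H3K27ac and H3K27me3, an active and a repressive histone mark, in WT lines 532 and 541 and KO lines 530 and 534, the lines that also make up batch 3. The protocols describe a floxed Mettl14 allele, deleted through the germ line with EIIa-Cre or in brain with nestin-Cre, and the labels do not tie the lines to either.

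Total fragments per library ran from 14087371 to 19724097. Mettl14 itself had 22.6 to 24.9 CPM (counts scaled to library depth) in WT, 22.6 to 24.3 in Het and 20.0 to 22.4 in KO of batch 1, and 35.4 and 37.8 in WT and 30.3 and 22.7 in KO of batch 3. On the log2 scale KO differed from WT by −0.12 in batch 1 (edgeR adjusted p = 0.22), −0.46 in batch 3 (0.084) and −0.24 over batches (0.046). Exons outside the floxed segment also feed this count, which therefore checks nothing about the deletion. All 11 progenitor markers were expressed, and in KO over batches edgeR called 4 of them lower (Nes, Vim, Pax6, Fabp7) and 3 higher (Sox2, Slc1a3, Msi1). Their summed FPKM (fragments scaled by gene length and depth) was 6361 to 6456 in WT and 3003 to 3220 in KO of batch 1, and 5657 to 5690 against 3195 to 4398 in batch 3. Vim and Fabp7 made up most of it: the other 9 summed to 826 to 864 FPKM in WT and 1064 to 1180 in KO of batch 1, and to 702 to 846 against 899 to 930 in batch 3. Markers of microglia, endothelium and fibroblasts summed to at most 1.35 FPKM in any library. Those of astrocytes (40.7 to 186) and oligodendrocytes (689 to 1854) were present in every group. In bulk RNA, fewer cells of a type and less RNA per cell cannot be told apart.

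The first comparison set KO against WT. The maintenance pair Dnmt1 and Uhrf1 fell most, Tdg and Tet1 fell less, Dnmt3a, Tet2 and Tet3 rose, and Dnmt3b did not pass the test over batches. Thus 3 of the 8 genes were called higher and 4 lower (edgeR quasi-likelihood test, Benjamini-Hochberg adjusted p below 0.05), where 32.7% of all genes tested were called higher and 30.6% lower. A call is therefore common in these data, and the sizes and directions below carry more than the count. The median log2 fold change of the 8 was −0.04, beside 0.03 over all genes.

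**Figure D1:**
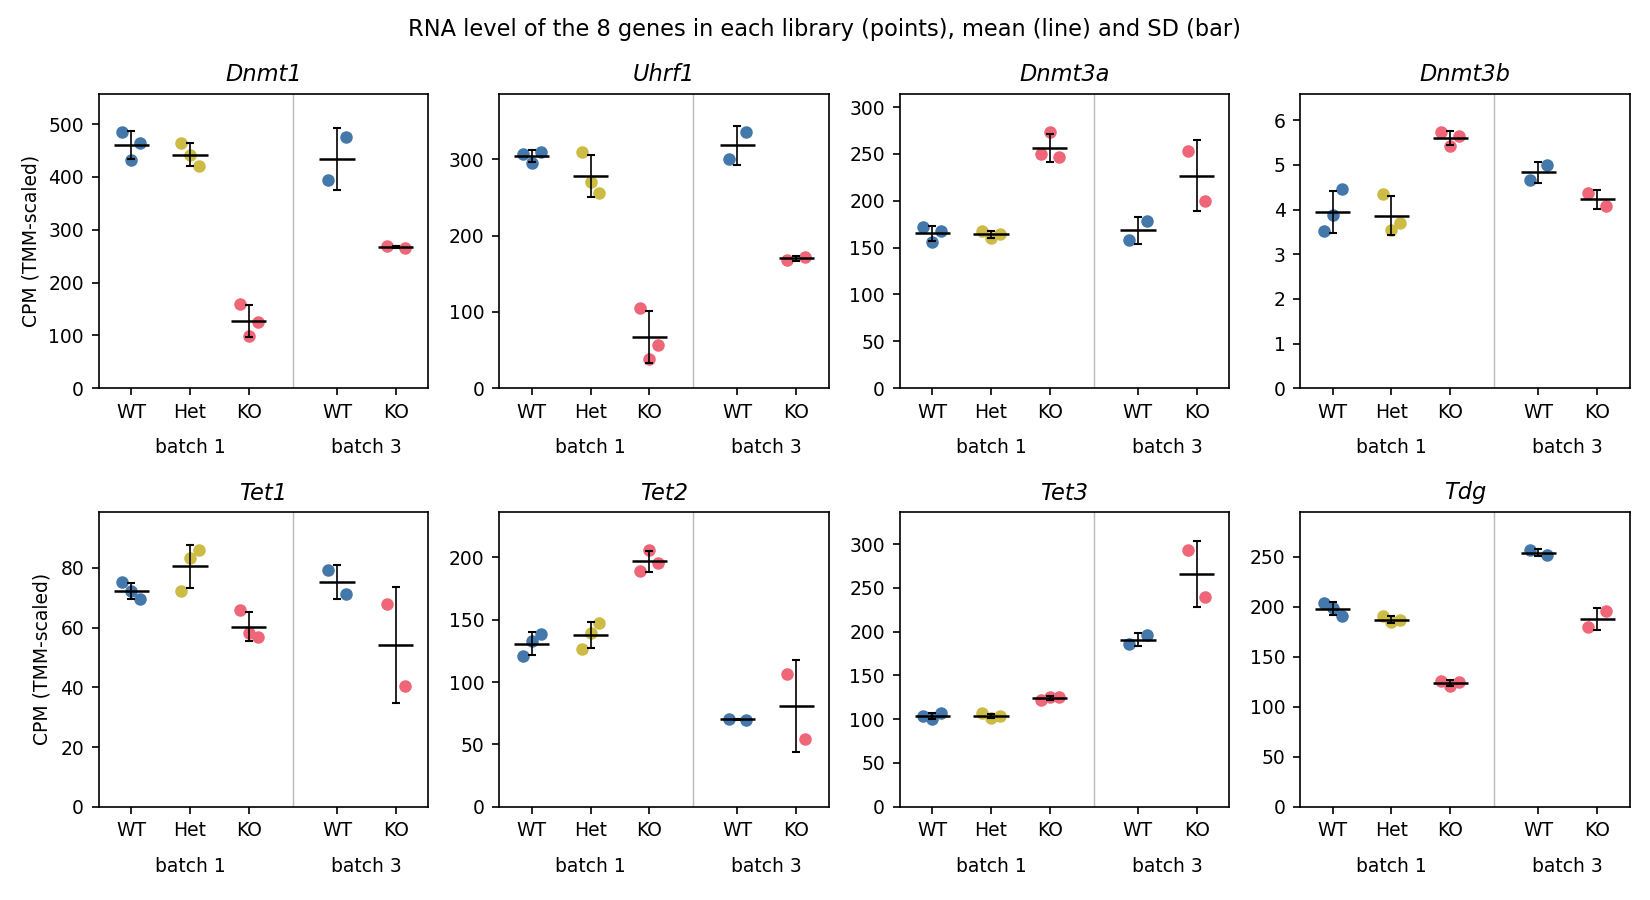
RNA level of each gene in CPM (y axis, from 0) by genotype and batch (x axis), with 1 point per library, the mean as a line and the SD as a bar. In batch 1 the KO points lie apart from the WT and Het points for all 8 genes, and in batch 3 the KO points of Tet2, at 107 and 54.4, lie on either side of WT.

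Dnmt1 (chromosome 9, 20907185 to 20959888, minus strand, mm10) encodes the maintenance methyltransferase. Its level in batch 1 was 485, 433 and 465 CPM in the WT libraries, 465, 441 and 421 in Het and 159, 98.3 and 125 in KO. In batch 3 it was 393 and 476 CPM in WT and 269 and 266 in KO. The KO libraries lay below all others in both batches, with more spread in batch 1 than in batch 3. The log2 fold change was −1.37 over batches (SE 0.19, edgeR adjusted p = 3.4e-05), a level 2.59-fold lower.

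Uhrf1 (chromosome 17, 56303337 to 56323486, plus strand) encodes the reader of half-methylated CpG. Its CPM values were 308, 296 and 310 in WT, 309, 270 and 256 in Het and 105, 38.8 and 57.3 in KO of batch 1. In batch 3 they were 301 and 336 in WT and 168 and 173 in KO. Every KO library was below every other library of its batch, and the first KO library of batch 1 had 2.71 times the level of the lowest. Over batches the log2 fold change was −1.65 (SE 0.26, edgeR adjusted p = 0.00011), a level 3.14-fold lower and the largest difference among the 8 genes.

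Dnmt3a (chromosome 12, 3806039 to 3914446, plus strand) encodes the de novo enzyme most used in neural cells. It had 172, 156 and 168 CPM in WT, 168, 160 and 165 in Het and 249, 273 and 246 in KO of batch 1. In batch 3 it had 158 and 178 in WT and 253 and 200 in KO. The KO libraries were above the rest in each batch. Its log2 fold change was 0.57 over batches (SE 0.076, edgeR adjusted p = 2.5e-05), or 1.49-fold higher, but in batch 3 alone it missed the threshold (0.43, edgeR adjusted p = 0.067).

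Dnmt3b (chromosome 2, 153649449 to 153729797, plus strand), the other de novo enzyme and the main one of the early embryo, was close to the lower end of what was tested. It had 3.51, 3.88 and 4.45 CPM in WT, 4.35, 3.54 and 3.69 in Het and 5.74, 5.43 and 5.65 in KO of batch 1, and 4.67 and 5.00 in WT against 4.38 and 4.08 in KO of batch 3. KO was thus above WT in the first batch and below it in the other. The log2 fold change was 0.50 in batch 1 (SE 0.16, edgeR adjusted p = 0.015), −0.19 in batch 3 (edgeR adjusted p = 0.64) and 0.25 over batches (95% interval −0.06 to 0.55, edgeR adjusted p = 0.19). With limma on log2(FPKM + 1) the batch 1 call was lost (adjusted p = 0.087).

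Tet1 (chromosome 10, 62804570 to 62887338, minus strand) encodes a dioxygenase best known from pluripotent and germ cells. It had 75.2, 72.2 and 69.7 CPM in WT, 72.2, 83.5 and 85.9 in Het and 65.8, 58.1 and 56.9 in KO of batch 1. In batch 3 it had 79.2 and 71.3 in WT and 68.1 and 40.6 in KO. KO was lower in both batches, and its libraries in batch 3 differed from each other 1.68-fold. The log2 fold change was −0.33 (SE 0.12, edgeR adjusted p = 0.028), a call lost with library size as the only scaling (edgeR adjusted p = 0.054), without the third KO library of batch 1 (0.056) or without the first WT library of batch 3 (0.067).

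Tet2 (chromosome 3, 133463661 to 133544390, minus strand) encodes a dioxygenase without the CpG-binding domain of its relatives. In batch 1 it had 121, 133 and 139 CPM in WT, 126, 139 and 147 in Het and 189, 206 and 196 in KO, with KO above all others. In batch 3 WT had 70.3 and 69.7, and the KO libraries, at 107 and 54.4, overlapped that range. The log2 fold change was 0.59 in batch 1 (SE 0.070, edgeR adjusted p = 2e-05) and 0.46 over batches (SE 0.14, edgeR adjusted p = 0.014). In batch 3 it was 0.20 (edgeR adjusted p = 0.61), and without the first KO library of that batch it turned to −0.36 (edgeR adjusted p = 0.024), with the lone KO library assumed to vary like the other group. Over batches the call was lost without that library (edgeR adjusted p = 0.065) or without the first WT library of batch 1 (0.058).

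Tet3 (chromosome 6, 83361278 to 83457078, minus strand) encodes the TET enzyme known for its part in neural development. It had 104, 100 and 107 CPM in WT, 106, 102 and 103 in Het and 122, 125 and 125 in KO of batch 1, and 186 and 196 in WT against 293 and 239 in KO of batch 3. KO was above the other libraries in each batch. The log2 fold change was 0.37 (SE 0.063, edgeR adjusted p = 0.0002), 1.29-fold higher.

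Tdg (chromosome 10, 82629838 to 82650494, plus strand) encodes the glycosylase that removes oxidised 5-methylcytosine. It had 204, 199 and 191 CPM in WT, 191, 184 and 186 in Het and 126, 121 and 125 in KO of batch 1. In batch 3 it had 256 and 252 in WT and 180 and 195 in KO. The libraries of a group lay close together, and KO was below the rest in both batches. The log2 fold change was −0.56 (SE 0.054, edgeR adjusted p = 1.6e-06), 1.47-fold lower.

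**Figure D2:**
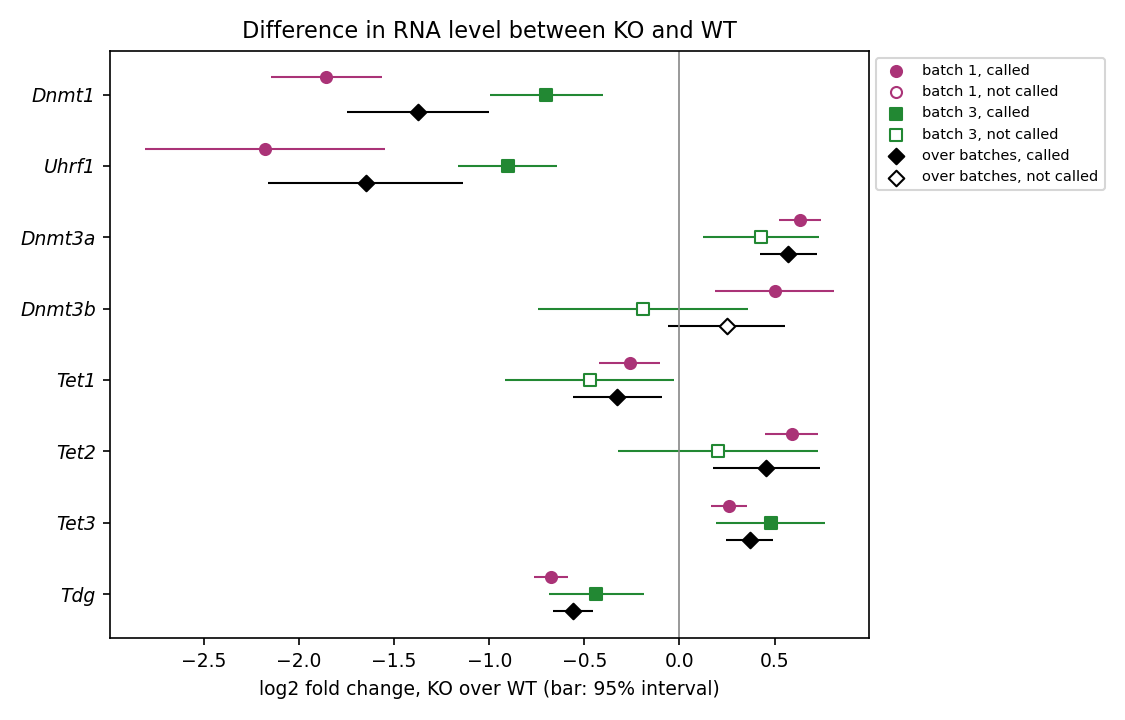
Log2 fold change of KO over WT (x axis) for each gene (y axis) in batch 1, in batch 3 and over batches; bars are 95% intervals and open symbols did not pass the test. Dnmt1 and Uhrf1 lie farthest to the left, at −1.37 and −1.65 over batches, and Dnmt3a lies farthest to the right, at 0.57.

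Within batch 1 all 8 genes were called, 4 higher and 4 lower, where 34.3% of genes were higher and 35.0% lower. For each of the 8, all KO libraries lay outside the range of the WT and Het libraries, which also held for 65.7% of all genes tested. With limma on log2(FPKM + 1) 5 of the 8 were called there, 2 higher and 3 lower, beside 27.1% and 37.5% of genes by the same method, since Dnmt3b, Tet1 and Tet3 missed the threshold. Within batch 3 there were 4 calls (Uhrf1, Dnmt1 and Tdg lower, Tet3 higher), where 17.3% of genes were called higher and 14.4% lower. All KO libraries of batch 3 lay outside the WT range for every one of the 8 genes except Tet2, as for 69.1% of all genes.

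The second question was whether 1 lost copy of Mettl14 moved these genes. None of the 8 was called between Het and WT, where edgeR called 2 of 13677 genes (0.0146%), 1175 had an unadjusted p under 0.05, DESeq2 called 26 and limma called 2. The differences ran from −0.13 for Uhrf1 (95% interval −0.72 to 0.47) to 0.15 for Tet1 (−0.00 to 0.31), and Dnmt1, at −0.06, had an interval of −0.34 to 0.22. The falls of Dnmt1 and Uhrf1 in KO of this batch, −1.86 and −2.18, lie outside these intervals. Against Het, which shares the KO libraries with the comparison above, KO was again called in all 8 genes, 4 higher and 4 lower, where 33.8% of genes were higher and 34.2% lower. Dnmt1 then differed by −1.80 and Uhrf1 by −2.05.

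The effect of KO on Dnmt1 differed between batches. Its log2 fold change was −1.86 in batch 1 and −0.70 in batch 3, a difference of 1.12 in the interaction test (SE 0.21, edgeR adjusted p = 0.005), where 18.9% of all genes passed that test. For Uhrf1 the values were −2.18 and −0.90, and the difference of 1.24 missed the threshold in edgeR (adjusted p = 0.053) and passed in DESeq2 (0.045) and in limma on log2(FPKM + 1) (0.019). Dnmt3b had a difference of −0.73 (edgeR adjusted p = 0.059), and the other 5 genes had adjusted p from 0.13 to 0.47. In simulated counts this test recovered 2% of 1.5-fold and 44% of 2-fold differences, with 100 of 13726 genes changed at each size. A larger share passed in these data, which eases the adjusted threshold, so the recovery here may be higher. These misses still do not show equal effects. Without single libraries the difference ran from 0.96 to 1.31 for Dnmt1 and from 0.15 to 0.26 for Tdg. It ran from −0.42 to −0.074 for Dnmt3a, −0.66 to 0.085 for Tet1 and −0.99 to −0.013 for Tet2. Where a batch 3 library was left out, 1 library remained in its group, assumed to vary like the other groups. The progenitor marker sum differed between the 2 KO libraries of batch 3, as given above, and its part in these values was not tested.

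Levels were compared between genes as FPKM, which is per length. In WT of batch 1 the order was Uhrf1 (97.9 ± 2.87 FPKM, SD, n = 3), Dnmt1 (87.4 ± 3.44), Tdg (71.2 ± 3.07), Dnmt3a (17.2 ± 0.497), Tet2 (10.8 ± 0.949), Tet3 (9.70 ± 0.203), Tet1 (4.63 ± 0.329) and Dnmt3b (1.04 ± 0.142). Tet2 and Tet3 overlapped, and no other neighbours did. In KO of batch 1 Tdg led with 42.4 ± 2.205 FPKM, followed by Dnmt3a at 24.7 ± 1.71, Dnmt1 at 21.5 ± 5.44 and Uhrf1 at 19.2 ± 10.1, and the libraries of Dnmt3a, Dnmt1, Uhrf1 and Tet2 (16.1 ± 1.43) overlapped from neighbour to neighbour. The de novo enzyme gene Dnmt3a thus stood far below Dnmt1 in WT and beside it in KO of this batch, but not in KO of batch 3, where Dnmt3a had 21.5 ± 4.32 FPKM. In KO of batch 3 the 3 leaders were Tdg, Uhrf1 and Dnmt1, at 62.3 ± 3.57, 53.3 ± 2.54 and 50.3 ± 8.55 FPKM (n = 2), well above Tet3 at 24.6 ± 5.78. Dnmt3b was last in all 5 groups. One Het library carried the deposited status FAIL at Dnmt1, and its value was kept.

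Dnmt1 and Uhrf1 varied together. After the mean of each batch was removed, their log2 CPM had a Pearson r of 0.990 over the 13 libraries, which share scaling and the KO against WT contrast. By the same measure the genes most like Dnmt1 were Hells (0.998), a chromatin remodeller needed for DNA methylation, and Adam12 (0.998), and Uhrf1 was close to the replication checkpoint gene Clspn (0.997). Close to Dnmt3a was Ndst1 (0.989). Closest to Tet2 were Kmt2e and Ppp1r9a (0.987 and 0.986), to Tet3 Lmtk2 and Zfhx3 (0.981 and 0.978), and to Tdg Lars and Tpm1 (0.997 and 0.994). Tet1 was most like Pcdh9 and Tnks (0.971 and 0.961), and Dnmt3b most like Ext1 and Mllt4 (0.954 and 0.945).

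Of the 7 partners of maintenance methylation 6 were lower and 1 higher in KO over batches, where 30.6% and 32.7% of all genes were. Their median log2 fold change was −1.02, beside 0.03 over all genes. Hells was at −1.60 (SE 0.21, edgeR adjusted p = 2.5e-05), Pcna, the sliding clamp of replication, at −1.50, and Lig1, the ligase of Okazaki fragments, at −1.18. In batch 1 Hells had 111 ± 9.32 CPM in WT and 24.99 ± 7.16 in KO (SD, n = 3 each), and the batch 3 means were 162 ± 23.6 and 88.8 ± 3.29 (n = 2 each). Uhrf2, the relative of Uhrf1 that does not replace it in maintenance, was higher at 0.25 (edgeR adjusted p = 0.0023), though not in batch 3 alone (0.49).

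Genes of DNA replication, whose RNA follows S phase, moved with the maintenance pair. All 22 were tested, and 20 were lower and none higher over batches, where 30.6% of all genes were called lower. Their median was −1.35, beside −1.37 for Dnmt1 and −1.65 for Uhrf1. In batch 1 the median was −1.90, with −1.86 for Dnmt1, and in batch 3 it was −0.58, with −0.70. The cyclin gene Ccne2 (−2.17), the histone chaperone gene Chaf1b (−1.81) and the helicase gene Mcm2 (−1.68) differed most among those that passed in both batches. Whether fewer cells in S phase account for the levels of Dnmt1 and Uhrf1 was not tested.

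Among partners of the de novo enzymes 4 of 6 could be tested. Trim28, which recruits silencing to imprinted and repeat DNA, fell by 0.83 on the log2 scale (SE 0.093, edgeR adjusted p = 5.7e-06). Zfp57, which guides it to imprinted regions, was called higher at 0.39, barely inside the threshold (edgeR adjusted p = 0.05), and its batches had opposite signs. It was at 0.71 in batch 1 (edgeR adjusted p = 0.00011) and −0.13 in batch 3 (0.67), a difference of −0.87 that passed the interaction test (0.019). Ehmt1 (0.06) and Ehmt2 (−0.01), histone methyltransferase genes, did not pass, and Dnmt3l and Dppa3 were below the low-count filter.

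Genes of the families that hold the readers of methylated CpG included 4 higher and 1 lower of 7 tested. Over all genes 32.7% were called higher and 30.6% lower. The median of the 7 was 0.32, beside 0.03 over all genes. Zbtb4 rose by 0.84 (SE 0.10, edgeR adjusted p = 9.5e-06) its batch 1 means being 22.2 ± 2.995 CPM (WT) and 41.95 ± 2.25 CPM (KO). Zbtb33, which encodes the reader Kaiso, rose by 0.63, and both were also called in batch 3 alone.

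Among 10 partners and metabolic genes of the TET enzymes, 4 were higher and 1 lower (median 0.24), where 32.7% and 30.6% of all genes were. D2hgdh, which removes the TET inhibitor 2-hydroxyglutarate, rose by 1.26 (SE 0.15, edgeR adjusted p = 8.5e-06). Its WT and KO means were 10.3 ± 0.866 and 27.7 ± 1.44 CPM in batch 1, and 7.87 ± 0.137 and 15.2 ± 4.95 CPM in batch 3. Cxxc4, which encodes a CpG-binding partner of TET2, rose by 1.09 (SE 0.19). Idh2, a source of the cofactor 2-oxoglutarate, rose by 0.39 in edgeR but not in limma on FPKM (adjusted p = 0.13), while its cytosolic relative Idh1 fell by 0.30.

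In base excision repair, the pathway after TDG, 4 genes were higher and 4 lower of 10 tested (median −0.10). Over all genes tested 32.7% were called higher and 30.6% lower, so these counts alone say little about the pathway. Neil3, a glycosylase of dividing cells, fell by 1.75 (SE 0.18, edgeR adjusted p = 2.9e-06). Parp1, whose locus is joined with Mir6904, and Xrcc1, which act at strand breaks, fell by 0.96 and 0.94. Apex1, which cuts the DNA after the base is gone, rose by 0.85 and Neil1 rose by 0.56. The methyl donor cycle had 3 genes lower and 1 higher of 5 (median −0.45). Mat2a, which makes S-adenosylmethionine, fell by 0.94 (SE 0.080) and Ahcy, which clears its product, fell by 1.11.

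m6A peaks in WT cells were steady across lists in 4 of the 8 genes. The 4 lists of peaks combine 2 IPs with 2 inputs, so they are not independent. Dnmt3a, Tet1, Tet2 and Tet3 had a peak in an exon in all 4 lists, as did 42.2% of all genes tested. Dnmt1, Uhrf1, Dnmt3b and Tdg did not, and each of their exonic regions was in 1 or 2 lists. The 2 regions of Dnmt1 were in different pairs of lists. Peaks of any of these 4 genes in exons stayed below a −log10 q of 5 in every list, whereas Dnmt3a, Tet1 and Tet3 passed it in all 4 lists, as did 7.99% of genes. Fold enrichment over input, quoted below, is the authors' value for a peak.

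In each of the 4 genes with steady peaks, a region of the last exon carried m6A in all 4 lists. In Tet1 it ran from 62812933 to 62813317 (fold 4.59 to 5.61), and in Tet2 it covered 1741 bases, 133466305 to 133468045 (3.42 to 5.83). Tet3 had 2 such regions, 83369064 to 83369615 and 83368176 to 83368844 (3.15 to 3.72). Dnmt3a had 1 of 163 bases, 3907676 to 3907838 (2.88 to 3.77), 6608 bases from the 3′ end of the locus. Tet2 also had a region in its first exon in 2 lists, both from the same IP. Its folds there were the highest exonic ones among the 8 genes (6.20 to 7.46). A further region in all lists lay in an inner exon of each: exon block 5 of 14 in Tet1, 4 of 10 in Tet2, 3 and 6 of 14 in Tet3 and 5 of 27 in Dnmt3a.

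The weaker peaks lay away from the last exon. Dnmt1 had 1 region in exon block 3 of 41 and 1 across blocks 24 and 25, each in 2 lists. Both lists of the latter come from the same IP. Uhrf1 had 1 in block 4 of 18 in 2 lists, and Tdg 1 in its first exon in 2 lists. Dnmt3b had a region in all 4 lists at 153692413 to 153692641 (fold 5.24 to 7.53), but it overlapped no assembled exon, and the Dnmt3b locus of the batch 3 assembly ended before it, at 153687730. Of the 4 genes with exonic m6A in all lists, Dnmt3a, Tet2 and Tet3 were higher and Tet1 was lower in KO. Over all genes, 54.4% of those called higher had m6A in all lists, 36.3% of those called lower and 36.1% of those not called; this was not tested, and neither length nor level was matched.

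**Figure D3:**
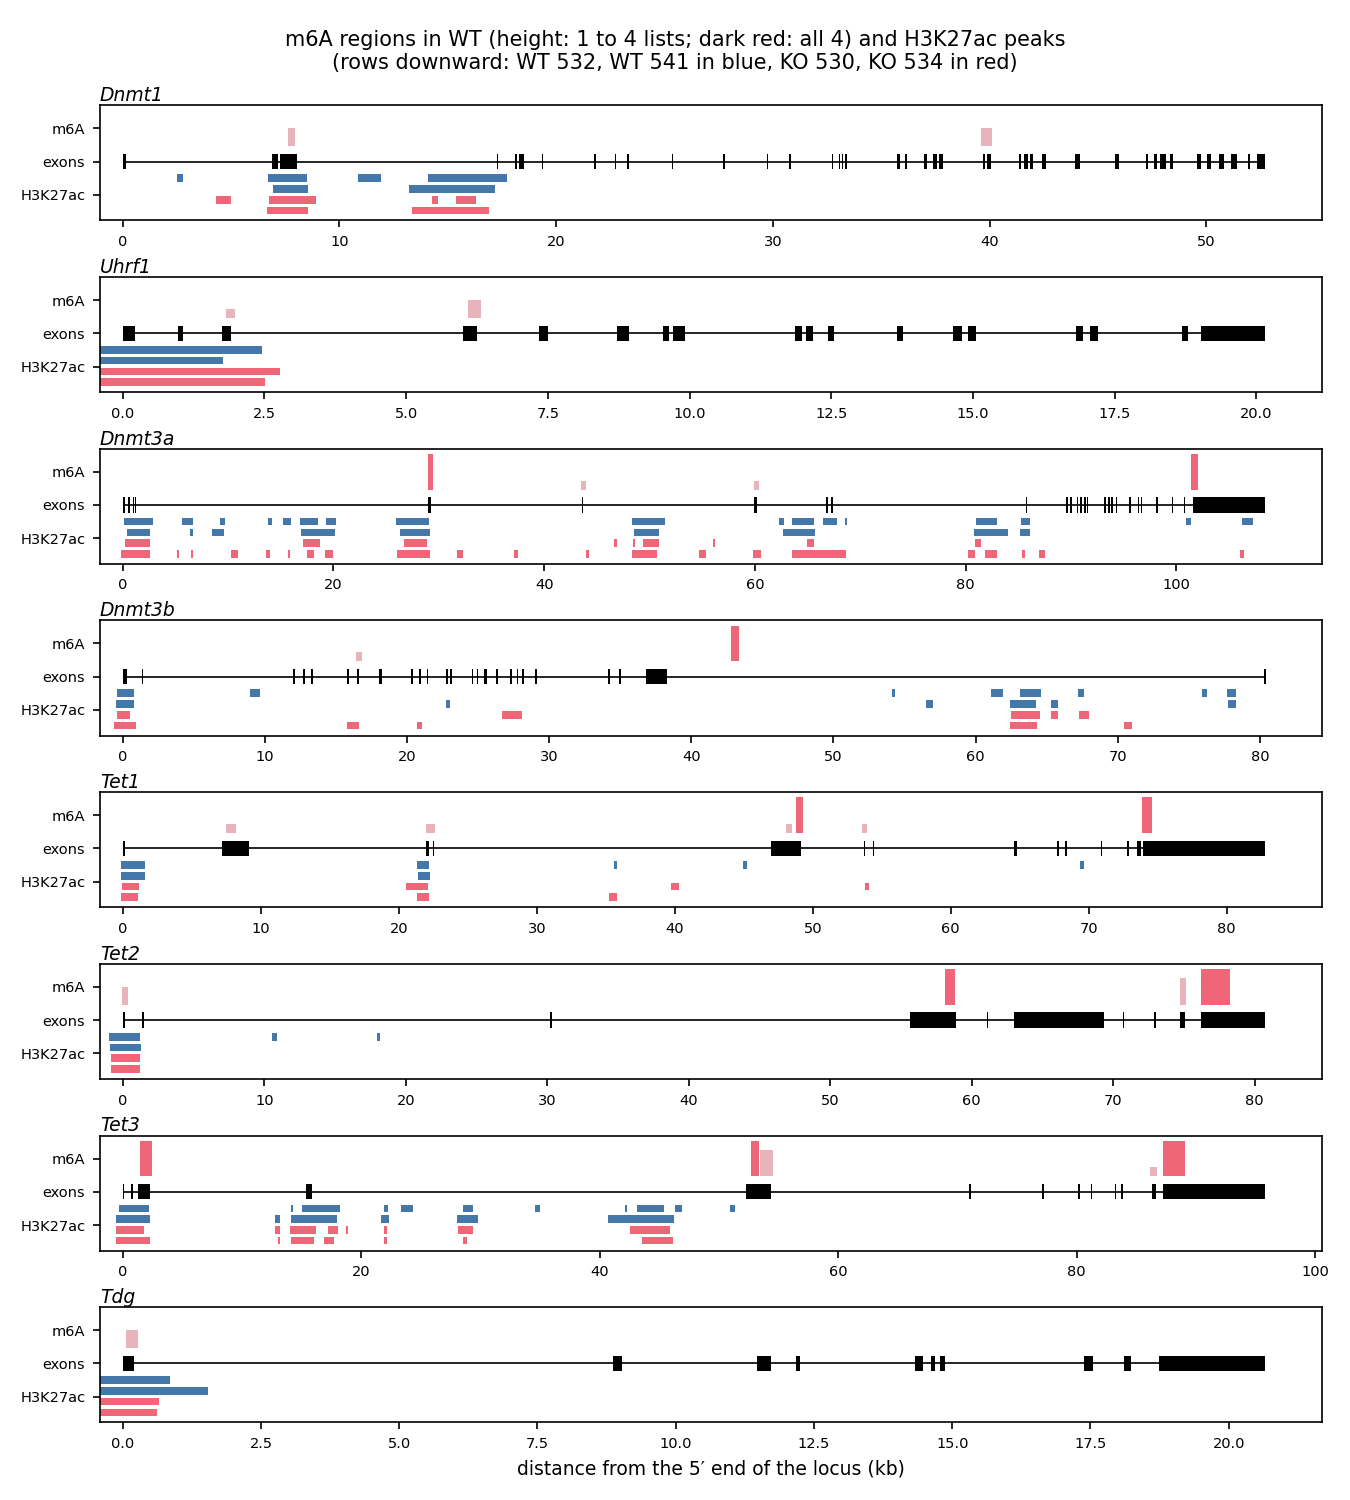
Each gene from the 5′ end of its batch 1 locus (x axis, kb) with exons in black, m6A regions in WT above (height shows 1 to 4 lists, dark red all 4, drawn slightly widened) and H3K27ac peaks of 4 lines below, cut where they pass the locus end. Dark red regions stand over exons in Dnmt3a, Tet1, Tet2 and Tet3, and H3K27ac covers the 5′ end of each gene, or, in Dnmt1, a start inside the locus.

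The histone peaks asked whether promoters differed with genotype. A peak of H3K27ac, a mark of active promoters and enhancers, lay within 1 kb of a RefSeq start of all 8 genes in all 4 lines, as for 85.9% of the 10022 tested genes with a RefSeq promoter. At the strictest threshold tried (−log10 q of 5) Tet1 dropped out and the other 7 remained, beside 74.3% of genes. With 2 lines against 2, an exact test cannot reach significance, and fold values from separate lists were not compared between genotypes. At the Tdg start fold enrichment was 10.1 and 11.2 in WT lines 532 and 541 and 10.7 and 12.2 in KO lines 530 and 534. At the Uhrf1 start it was 6.50 and 7.51 in WT and 5.64 and 7.22 in KO, and at Dnmt1 7.48 and 9.49 in WT and 7.23 and 8.93 in KO. Both genes whose RNA fell most thus kept a called H3K27ac promoter peak in both KO lines.

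Several genes have more than 1 start. Dnmt1 is known for an oocyte first exon upstream of the somatic one, and the H3K27ac peak lay over the downstream starts at 20952979 and 20952623 in all 4 lines. At the upstream start, 20959888, only WT line 532 had an H3K27ac peak within 1 kb (fold 2.66). H3K27me3, the Polycomb mark, had one within 1 kb in WT lines 532 and 541 and KO line 530 (fold 3.45 to 3.64). The peak of KO line 530 lay upstream of the start and those of the WT lines inside the locus. In KO line 534 a peak at 20958421 to 20958881 (fold 2.88) fell just outside 1 kb. Within 2.5 kb all 4 lines had one. Dnmt3a carried H3K27ac at its long-form starts, 3806980 and 3807160, in all lines (fold 8.74 to 10.3) and a lower peak at 3891744, an inner start, in both WT lines and KO line 534 (3.29 to 3.57) but not in KO line 530. Tet3 had a peak of fold 4.01 to 5.58 at its RefSeq start, 83441678. Its highest peak (fold 11.2 to 18.2) lay at the 5′ end of the assembled locus, 83457078, at the 98.3 to 99.8 percentile of folds in its list.

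H3K27me3 lay within 1 kb of a start in at least 1 line for 2 of the 8 genes, Dnmt1 at its upstream start and Dnmt3b in WT line 541 (fold 3.36), beside 20.3% of genes. None of the 8 had one at a −log10 q of 5, beside 7.38% of genes. Over whole loci, Uhrf1, Dnmt3a, Tet1, Tet2, Tet3 and Tdg held no H3K27me3 peak in any line. H3K27ac inside Dnmt3a covered 21.1% and 17.9% of the locus in WT lines and 8.997% and 20.5% in KO lines. The gap between the KO lines was larger than that between genotypes. The H3K27ac lists also differed in size. They covered 82.7 and 68.7 Mb in WT lines 532 and 541, and 50.5 and 64.8 Mb in KO lines 530 and 534. Whether list size accounts for peaks missing or present in single lines was not tested.

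Promoter sequences (RefSeq, build GRCm38.p6, 250 bases before to 50 after a start, all 8 genes matched) are given for both kinds of Dnmt1 start, for Uhrf1 and for Tet2, since they span the lowest to the highest CpG content among the 8 genes. Each reads 5′ to 3′ on the gene's strand, with capitals at CpG, the target of these enzymes.
Dnmt1, upstream start, chr9:20959839-20960138, minus strand: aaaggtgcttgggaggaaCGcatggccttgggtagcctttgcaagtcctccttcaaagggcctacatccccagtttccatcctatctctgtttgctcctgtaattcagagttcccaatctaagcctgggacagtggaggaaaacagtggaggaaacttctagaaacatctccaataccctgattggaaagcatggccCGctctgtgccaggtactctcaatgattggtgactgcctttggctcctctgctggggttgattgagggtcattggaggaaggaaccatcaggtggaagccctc
Dnmt1, downstream start, chr9:20952574-20952873, minus strand: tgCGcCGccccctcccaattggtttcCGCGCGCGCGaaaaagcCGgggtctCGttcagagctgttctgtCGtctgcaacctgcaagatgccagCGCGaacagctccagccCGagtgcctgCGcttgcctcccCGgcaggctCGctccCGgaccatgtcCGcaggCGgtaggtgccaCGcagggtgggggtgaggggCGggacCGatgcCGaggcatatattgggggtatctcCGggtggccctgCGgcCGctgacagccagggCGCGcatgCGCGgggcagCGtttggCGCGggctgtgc
Uhrf1, downstream start, chr17:56304063-56304362, plus strand: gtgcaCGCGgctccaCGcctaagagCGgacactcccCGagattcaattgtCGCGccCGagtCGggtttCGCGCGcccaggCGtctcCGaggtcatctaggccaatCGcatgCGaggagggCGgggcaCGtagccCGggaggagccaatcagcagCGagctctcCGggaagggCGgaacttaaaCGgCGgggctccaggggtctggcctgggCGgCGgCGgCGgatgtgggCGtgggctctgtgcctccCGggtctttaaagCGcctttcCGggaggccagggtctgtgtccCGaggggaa
Tet2, chr3:133544341-133544640, minus strand: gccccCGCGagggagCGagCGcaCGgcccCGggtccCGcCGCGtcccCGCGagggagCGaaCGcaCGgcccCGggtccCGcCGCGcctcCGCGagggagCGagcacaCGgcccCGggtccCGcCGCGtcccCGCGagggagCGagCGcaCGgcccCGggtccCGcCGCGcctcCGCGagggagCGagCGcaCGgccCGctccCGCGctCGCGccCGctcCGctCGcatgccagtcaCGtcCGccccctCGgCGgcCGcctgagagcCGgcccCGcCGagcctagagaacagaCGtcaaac
The upstream Dnmt1 window holds 2 CpG and the downstream one 33, against a median of 7 over 32851 promoters. The first is the start with H3K27me3 within 1 kb in 3 lines and within 2.5 kb in all 4. The other is the start with H3K27ac in all 4. Uhrf1 also has 33 CpG at the downstream start and 12 at the start upstream of it, and Tet2 has 57, more than any other window of the 8 genes. Tdg has 26, Dnmt3b 30, Dnmt3a 46 and 47 at its long-form starts and 18 at the inner one, Tet3 22 and Tet1 17. The letters TTTCCCGC and TTTGGCGC, forms of the site bound by E2F factors, were searched on both strands. Either was in 1.56% of all promoters, and among the 13 windows of the 8 genes only the downstream Dnmt1 window held one, TTTGGCGC, 33 bases after the start. Among S phase genes 18 had a promoter given, of which 8 held one. Of the 7 maintenance partners Hells and Cdca7 did, and of the 16 germ cell genes described below Slc25a31 and Sycp3 did. No promoter of the other lists held one.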

How the data were processed

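RNA-seq of 13 libraries in batches 1 and 3 was used; the table of batch 2 is byte for byte that of batch 1, and its libraries were not analysed here. The authors deposited raw fragment numbers per locus, which are estimated counts, and FPKM values; TopHat2 2.1.0, Cufflinks, Cuffdiff and mm10 are named in the submitters' processing notes, and the use of strand is not given in the sources used here. In the deposited peak lists each peak has a score, a fold enrichment over input (a ratio) and −log10 p and q values, from MACS2 and Bowtie2 2.3.1 per the submitters' processing notes; their depth is unknown. The deposited assemblies hold exon positions, used for loci.

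Counts were rounded and summed by gene name, loci with several names were kept joined, loci marked HIDATA were dropped, those marked FAIL were kept, and loci without a gene name (0.352% to 2.16% of fragments) were left out. edgeR 4.0.16 (TMM, default low-count filter, robust quasi-likelihood F test, two-sided, batch as covariate over batches) was fitted to all genes, with Benjamini-Hochberg adjustment; SE is the log2 fold change over the root of F, and 95% intervals use the normal quantile. The test was checked on simulated counts with 1.5-fold changes in 100 genes and 2-fold changes in another 100. It recovered 42% and 77% of them over batches, 57% and 84% for KO against WT in batch 1, and 22% and 73% in batch 3. For the difference between batches it recovered 2% and 44%. Far more genes were called in the real counts, which eases the adjusted threshold, so these shares need not hold there. A gene not called in batch 3 or between batches may still differ. DESeq2 1.42.0, limma 3.58.1 on log2(FPKM + pseudocount of 1 or 0.1), no filter, no TMM, joined loci left out, no Het and each library left out were alternatives. The tables number libraries within a genotype but do not tie them to lines. CPM and FPKM were normalised within each batch, so levels are compared within a batch. Whether lines are separate embryos is not stated beyond their numbers.

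Members and lists were chosen with earlier results of these data known. Named were all members, the likest 2 genes to each, and up to 3 genes per list called over batches and in each batch in 1 direction, largest first; other named genes were chosen after their values were seen. A few genes that this rule or the lists hold are not reported here. Peaks had to overlap an exon by 1 base or lie within 1 kb of a RefSeq start.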

Additional observations from a re-analysis of the deposited data

Results flagged for a closer look

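The effect of KO differed between batches by the interaction test in edgeR (adjusted p below 0.05) for the genes given here. They are a selection of the list genes that passed, and in all of them but Zfp57 the difference was a smaller fall in batch 3. The difference in log2 fold change, batch 3 minus batch 1, was 1.12 for Dnmt1 and, among maintenance partners, 1.24 for Hells, 1.43 for Pcna, 1.26 for Lig1 and 1.26 for Cdca7. It was 1.94 for Ccne2, 2.01 for Chaf1b and 1.66 for Mcm2, the named S phase genes. Parp1 (0.44) and Xrcc1 (0.62) of base excision repair and Ahcy (0.83) of the methyl donor cycle showed it too. Zfp57, a partner of the de novo enzymes, had −0.87, with 0.71 in batch 1 and −0.13 in batch 3. Of all 22 S phase genes 20 had a called difference, each of them positive, where 18.9% of all genes passed the test. Genes outside this selection went both ways. Among all 10 TET partners and metabolic genes, 1 difference was called positive and 3 negative (Gadd45g −1.15, Ogt −0.72, Gadd45b −1.81). Among the 10 base excision repair genes tested, 3 were positive and 1 negative (Lig3, −0.37). No group held enough libraries for a check of single outlying values.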

How the results depend on the processing

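No paired analysis was possible because the RNA groups share no culture lines, the tables' replicate numbers are not tied to lines, and peaks were not tested. The number of the 8 genes called over batches stayed at 6 to 7 under the alternatives run. With limma on FPKM (pseudocount 1 or 0.1) 5 were called in batch 1 and 1 in batch 3; leaving out single libraries gave 6 to 8 in batch 1 and 1 to 6 in batch 3. The number whose KO effect differed between batches was 2 with DESeq2 and with limma at either pseudocount, and 1 to 5 without single libraries; over all genes it ran from 1091 to 4491. Without single libraries Tet2 in batch 3 ran from −0.36 to 0.62, and the batch difference of Tet1 from −0.66 to 0.085. De novo partners called fell to 1 with limma at pseudocount 1, without the filter and without Het (1 to 2 without single libraries), cytidine deaminases to 0 with library size only and without Het (0 to 1), and germline genes gave 2 to 4. All genes called between Het and WT were 26 with DESeq2 and 0 to 17 without single libraries; in batch 3 they were 2082 to 5645 without single libraries. At a −log10 q of 5 no member had H3K27me3 at a start (0). The level order held in 3 of 5 groups on CPM per kb of exon; the cause was not tested. With limma at pseudocount 0.1, 73.3% of batch differences called over all genes were positive (56.7% in edgeR) and 39.2% of calls against Het were higher (49.7%), with median shifts of 0.11 and −0.12.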

Other observations

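Germ cell genes, whose promoters are kept silent by DNA methylation in somatic cells, were mostly too low to test: 4 of 16 passed the low-count filter. Of these Ddx4, a germ cell RNA helicase, rose by 2.36 on the log2 scale (SE 0.28, edgeR adjusted p = 8e-06), its batch 1 means being 1.49 ± 0.625 CPM (WT) and 8.73 ± 2.73 CPM (KO; SD, n = 3 each). The batch 3 means were 1.03 ± 0.307 and 4.003 ± 1.19 CPM (n = 2 each). Sycp3, of the meiotic chromosome axis, rose by 1.017 over batches but was not called in batch 3 alone (edgeR adjusted p = 0.22). Brdt and Tdrkh fell by 0.61 and 0.17. Since 12 of the 16 genes were not tested, these 4 do not describe the list. Among the cytidine deaminases, which have been proposed to act on methylated DNA, 3 of 4 were tested and Apobec1 was lower (−0.47, edgeR adjusted p = 0.039).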
